A study of Homo sapiens with 8 samples.

Results

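Cytosolic ribosomal protein genes encode the proteins of the small (40S) and large (60S) ribosomal subunits. They were chosen by symbol, as protein-coding genes named RPL or RPS followed by a digit, plus RPLP0, RPLP1, RPLP2 and RPSA, and without RPS6K genes, readthrough symbols, symbols such as RPL7L1 and the RPS4Y genes. The rule found 83 of the 63568 genes in the count table, of which 32 encode proteins of the small subunit, 47 of the large subunit and 3 of its P stalk. The remaining gene, RPS19BP1, met the rule by its symbol but encodes a protein that binds RPS19 and is no ribosomal protein. It had 0 reads in every lane.

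The cells were MIAPaCa-2, an established human pancreatic carcinoma line of epithelial origin. The control cells expressed a short hairpin RNA without a stated target (shRNA-Control), and the METTL3-KD cells a hairpin against METTL3, the catalytic subunit of the enzyme that writes N6-methyladenosine (m6A) on mRNA. For methylated RNA immunoprecipitation sequencing (MeRIP-seq), fragmented total RNA was split into an input and a portion captured with an antibody against m6A, and each library was sequenced on 2 lanes. The 8 samples are therefore 4 groups of 2 lanes, with 1 library per condition and assay, no repeated culture, and 1 shRNA against METTL3. No difference between conditions has a replicate check, and no p-value is given. All RNA is bulk RNA, so fewer cells and less RNA per cell cannot be told apart.

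The input lanes held 1609215 and 1628753 gene reads in the control and 906240 and 926765 in METTL3-KD. METTL3 itself had 0 reads in all 4 lanes, so the counts do not check the knockdown labels. KRT8 and KRT18, keratins of simple epithelia, VIM, a mesenchymal filament, and the stromal collagen gene COL1A2 (1804 control and 353 METTL3-KD reads) were read in both inputs. KRT19 (1 and 201 reads), SOX9 (0 and 155), ZEB1 (0 and 50) and the immune marker CD68 (0 and 43) passed 3 reads only in METTL3-KD. KRT7 had 1 and 0 reads. EPCAM, CDH1, MUC1, FN1, CDH2, the stromal genes COL1A1 and PDGFRB and the immune genes PTPRC and CD3E were at 0 in both. The 4 acinar and 3 endocrine pancreatic markers were also at 0. Counts did not spread evenly but gathered at steps. In the control the lowest steps lay at 511.7 and 1038 reads per gene, and in METTL3-KD at 19.36 and 35.48. The peak caller's log gave 310.1 aligned reads per distinct position in the control input and 25.65 in the METTL3-KD input. A group of reads of the size of the lower step is called a read family here. Sampling error was computed on families, since reads of 1 family may be copies of 1 molecule. If the upper step is the true unit, the intervals given here are too narrow.

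Each ribosome holds about equal amounts of its proteins, and their genes are among the most actively transcribed in growing cells. Most of their mRNAs begin with a C followed by a run of pyrimidines, the 5′ terminal oligopyrimidine (5′TOP) tract, through which mTOR signaling controls their translation. Several large subunit proteins, RPL5 and RPL11 among them, also bind MDM2 when ribosome assembly is disturbed and so stabilize p53. Loss of a copy of RPS19 or of several other ribosomal protein genes causes Diamond-Blackfan anemia.

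The start sequences of 65 of the 83 genes were found in RefSeq (GRCh38.p14). In 42 of the 65 (64.62%) the annotated start was a C followed by at least 4 further pyrimidines, against 4.043% of 27305 promoters. The median tract in the 65 was 8 bases. The sequences below run 5′ to 3′ from 5 bases before the annotated start, with the pyrimidine tract in capitals. They are shown because the ratios described further on are also given by 5′TOP start. The first 3 are the P stalk genes, RPS6 is the substrate of S6 kinase, RPL39 has the longest tract (19 bases), and RPL3 and RPL11 do not meet the rule.
RPLP0 (chr12:120201092-120201116, minus strand): gaggcCCTTCTCTCgccaggcgtcc
RPLP1 (chr15:69452813-69452837, plus strand): gagagCCCCTTTCCTCagctgccgc
RPLP2 (chr11:809962-809986, plus strand): gccttCCTTTTCCTCCCTgtcgcca
RPS6 (chr9:19380217-19380241, minus strand): tggccCTCTTTTCCgtggcgcctcg
RPS27 (chr1:153990757-153990781, plus strand): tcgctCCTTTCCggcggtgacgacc
RPL39 (chrX:119791611-119791635, minus strand): agcttCCCTCCTCTTCCTTTCTCCg
RPL3 (chr22:39319604-39319628, minus strand): ccggcctctaccggcgggatttgat
RPL11 (chr1:23691774-23691798, plus strand): cccataaggccctcggccggaagct

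Nearly all ribosomal protein genes were read in METTL3-KD, whereas 15 of the genes read there had 0 reads in the control. In METTL3-KD 79 of the 83 genes had reads, from 18 (RPS27L) to 1751 (RPL4), with a median of 693. In the control 56 genes had more than 3 reads, from 12 (RPL15) to 7920 (RPL13) with a median of 1060, 8 genes had 1 to 3 reads, and 19 had 0. The 4 genes at 0 in both inputs were RPS19BP1 and the tissue-restricted paralogs RPL3L, RPL10L and RPL39L.

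**Figure D1:**
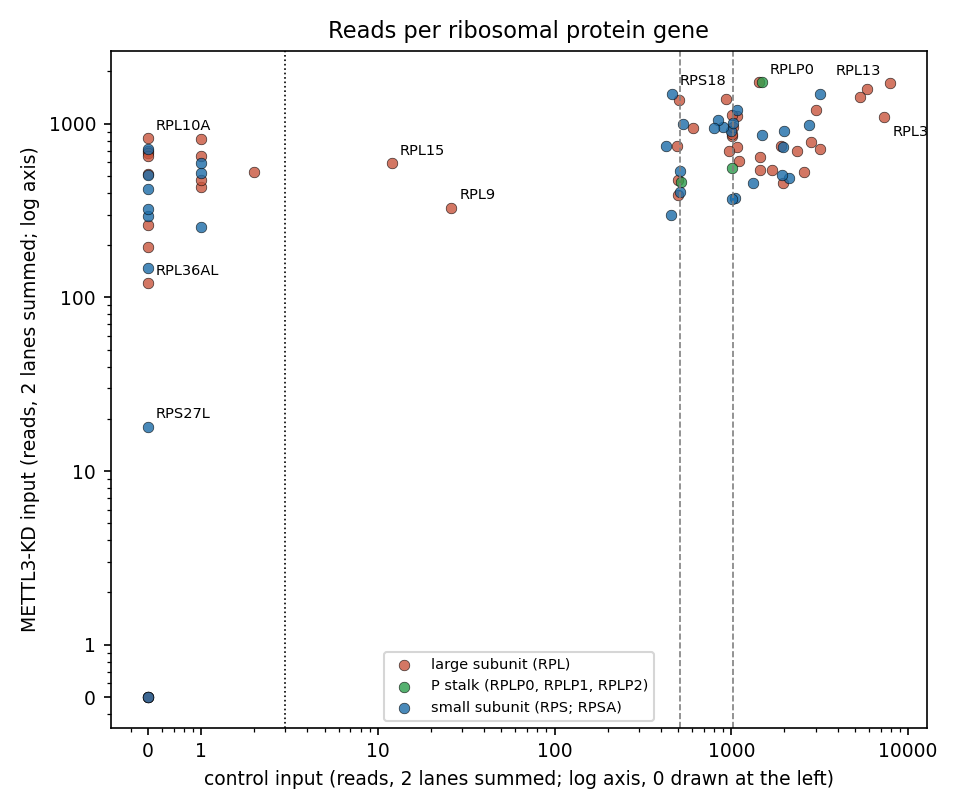
Reads of each ribosomal protein gene in the control input (horizontal axis) and the METTL3-KD input (vertical axis), lanes summed, on log axes with 0 drawn at the lower end. Each point is 1 gene, colored by subunit. The dotted line marks 3 reads, and the dashed lines mark 1 and 2 times the lower step of 511.7 control reads. Of the 79 genes read in METTL3-KD, 23 lie at 3 control reads or fewer, and apart from RPL15 and RPL9 the rest begin near the first dashed line.

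The missing control genes included central components of the ribosome. RPS27, a zinc finger protein of the small subunit, had 0 and 0 control reads in the 2 lanes and 337 and 381 METTL3-KD reads. RPS27A, which is made as a fusion with ubiquitin, had 0 and 0 control reads against 235 and 272. RPL35A, a Diamond-Blackfan anemia gene of the large subunit, had 0 and 0 control reads against 246 and 265. In all 3 genes the METTL3-KD lanes were close to each other and both control lanes were empty.

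A fold against 0 reads was computed as a lower bound, with the control set to 3 families (1535 reads over both lanes). The bounds used TMM scaling (trimmed mean of M values, described with the ratios). The bound was 2.56-fold higher in METTL3-KD for RPL10A (0 and 827 reads), 2.22-fold for RPS27 and 2.104-fold for RPL27 (680 METTL3-KD reads). For RPL32 (651) it was 2.01-fold, for RPL35A 1.58-fold and for RPS27A 1.57-fold. For 7 of the 15 genes with 0 control reads, among them RPS9 with 147 and RPL36AL with 121 METTL3-KD reads, the bound was under 1, so a difference was not detectable at this depth. With total count scaling the highest of the 15 bounds was 0.9517, so none of these bounds was then above 1.

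The genes missing from the control had lower METTL3-KD levels than the others. The 23 genes with at most 3 control reads had a median of 507 METTL3-KD reads, and the other 56 had a median of 763.5. Per kilobase of exon, scaled to the total gene reads of the input (RPKM), the median METTL3-KD levels were 79.83 and 135.3. The canonical transcripts had median lengths of 713 and 957.5 bases. Many other genes were missing as well. Of all 2577 genes with at least 100 METTL3-KD reads, 59.45% had at most 3 control reads, against 22 of 78 ribosomal protein genes (28.21%).

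As a group, the ribosomal protein genes took a similar share of both inputs. They held 2.853% of the control gene reads (95% Wilson interval 2.835 to 2.871) and 3.203% of the METTL3-KD gene reads (3.177 to 3.228). The intervals cover counting of single reads only and are too narrow where reads are copies. The small subunit accounted for 0.8429% and 1.172%, the large subunit for 1.917% and 1.88%, and the P stalk for 0.09305% and 0.1507%. The share was spread differently over the genes. Of the 500 genes with most reads, 24 were ribosomal protein genes in the control and 68 in METTL3-KD.

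Levels per length had a lower coefficient of variation in METTL3-KD than in the control, over different genes and at different depth. The median was 2.071 families per gene in the control and 35.79 in METTL3-KD. Counting error was not separated from spread between genes. As RPKM, the 56 genes over 3 reads in the control had a median of 102.8 and a coefficient of variation of 115.4%. The 79 genes read in METTL3-KD had a median of 101.3 and a coefficient of variation of 71.43%. On the length of the canonical transcript the medians were 314.7 and 444.5 and the coefficients of variation 86.36% and 67.87%.

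By exon length, the most abundant genes in the control were RPS12 (1025), RPL41 (785.7), RPL8 (762.9), RPL13 (632.7) and RPL13A (560.4). In METTL3-KD they were RPS18 (442.6), RPS12 (414.9), RPL41 (385.5), RPS27 (381.0) and RPL8 (360.1). RPS12, RPL41, which encodes a very short protein, and RPL8 were in both lists, whereas RPS18 stood at 77.46 and RPS27 at 0 in the control. The order changed with the length used. By the canonical transcript RPL3 (1742), RPL13A (1605), RPL8 (1539), RPL18 (1516) and RPS12 (1302) led in the control, and RPS18 (1479), RPL26 (1437), RPL39 (1230), RPL12 (1180) and RPS27 (1113) in METTL3-KD. Over the 56 genes the levels in the 2 inputs had a Spearman correlation of 0.5763 (a description across genes that share length and library). The 2 lanes of 1 library correlated at 0.9774 in the control and 0.9874 in METTL3-KD over 83 genes.

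Control reads of the ribosomal protein genes fell on a small number of steps. Divided by the lower step, they had a median of 2.071 families and a maximum of 15.48 (RPL13). Of the 45 genes with more than 3 reads and under 4.5 families, 27 (60%) lay within 0.15 of a whole number, which were 10 genes near 1, 13 near 2, 2 near 3 and 2 near 4. Among all genes in that range 1206 of 2127 (56.7%) did so. In METTL3-KD the ribosomal protein genes had a median of 35.79 families, up to 90.42 (RPL4). A control value of 1 or 2 families therefore limits the precision of most ratios below, and METTL3-KD values do so much less.

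**Figure D2:**
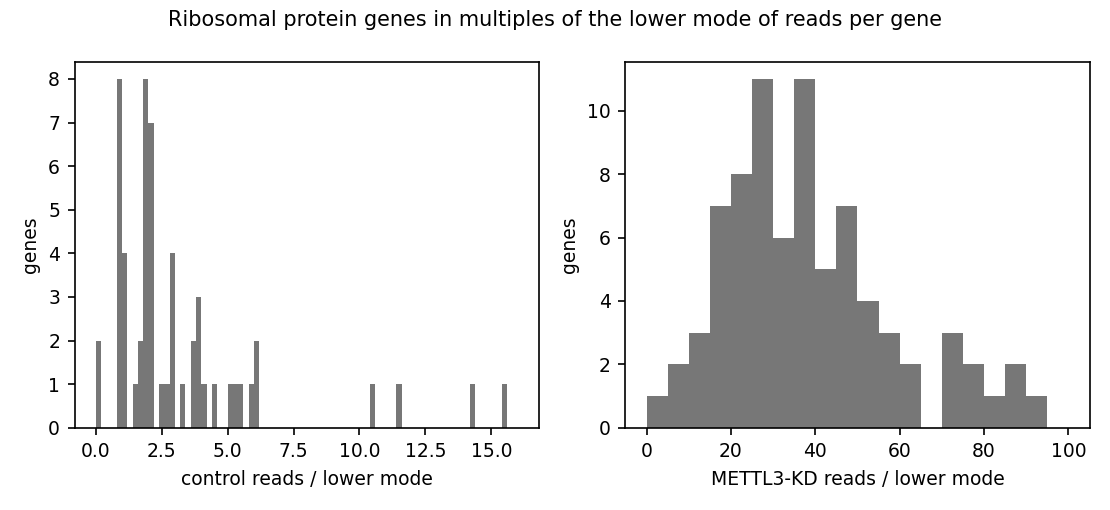
Reads of ribosomal protein genes divided by the lower step of reads per gene of the same input (511.7 in the control, 19.36 in METTL3-KD), as histograms of genes with more than 3 reads. The left panel shows the control, where genes pile up near 1 and 2, and the right panel METTL3-KD, where the median is 35.79.

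Ribosomal protein genes were compared between inputs as the log2 ratio of TMM-scaled CPM (counts scaled to library size), METTL3-KD over control, with a prior count of 2, and ratios beyond 2 in either direction were counted. Of the 79 genes with at least 10 reads over both inputs, 48 were higher and 0 lower, with a median of 2.30. Among all 9931 genes tested 79.2% were higher and 7.2% lower, and the median was 5.64, so a count of 48 is no more than the background. The direction depended on the scaling: under DESeq2 poscounts size factors 25 ribosomal protein genes were higher and 25 lower, with a median of -1.09. The share of all genes was counted with TMM only, so the counts under poscounts have no background here. Of the 48 genes, 23 had at most 3 control reads. The ratios of those 23 follow from the prior count and are no estimates of size.

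Among genes read in both inputs the ribosomal protein genes lay above the background. Over all genes tested they had lain under it, with medians of 2.30 and 5.64. The filter sets a minimum on control reads, the denominator of the ratio, so it uses values of the ratio itself. Of the 56 ribosomal protein genes with at least 10 reads in each input, 54 had a ratio above 0 with TMM, 31 with total counts and 4 with poscounts. With TMM they had a median of 1.73 and quartiles of 0.76 and 2.40. Of all 1871 genes with that many reads, 37.47% were above 0 and the median was -0.56. Beyond the limit of 2, 25 of the 56 were higher and 0 lower, against 8.02% higher and 20.4% lower in the background. With total counts 4 were higher and 0 lower, with a median of 0.30, and with poscounts 2 were higher and 25 lower, with a median of -1.67. Shares of the 1871 genes were not counted under these scalings, where their medians were -1.98 and -3.94. Total counts moved the median of the 1871 genes by -1.42 and poscounts by -3.38. Measured from the median of the 1871 genes, the ribosomal protein median was higher by 2.29 with TMM. A size factor moves all genes alike, so this difference cannot test the scaling.

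The difference from other genes was smaller among genes with a high mean of the 2 scaled inputs. That mean uses the same values as the ratio, and genes can pass it mainly through METTL3-KD reads. A rise of the background share with the cut is thus partly built in, and depth is not matched. The background of 1871 genes holds many with few METTL3-KD reads. Among genes with a mean scaled level at or above the lowest ribosomal protein gene, 11.1% of 893 were higher. At or above the lower quartile of the ribosomal protein genes, 22.3% of 278 genes and 19 of 42 ribosomal protein genes were higher, with medians of 1.09 and 1.57. At or above their median level, 26.4% of 193 genes and 14 of 28 ribosomal protein genes were higher, with medians of 1.12 and 1.78.

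In bins of control reads the difference was larger under 1200 reads than from 1900 reads upward. Control reads are the denominator of the ratio, so within a bin the ratio follows the METTL3-KD reads. The bins therefore cannot test the difference. In the range of 400 to under 650 control reads, about 1 family, 12 ribosomal protein genes had a median ratio of 2.57 against -0.36 for 425 genes, with medians of 639 and 82 METTL3-KD reads. From 900 to under 1200 reads, 16 had a median of 2.08 against -1.16 for 730 genes, with 892.5 and 94 METTL3-KD reads. From 1900 to under 2200 reads, 6 had a median of 0.58 against -0.41 for 104 genes, with 620.5 and 339 METTL3-KD reads. From 2500 reads upward, 10 had a median of 0.36 against 0.35 for 136 genes, with 1149 and 1187 METTL3-KD reads. The ribosomal protein genes with most control reads had a median ratio close to that of other genes of that depth.

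**Figure D3:**
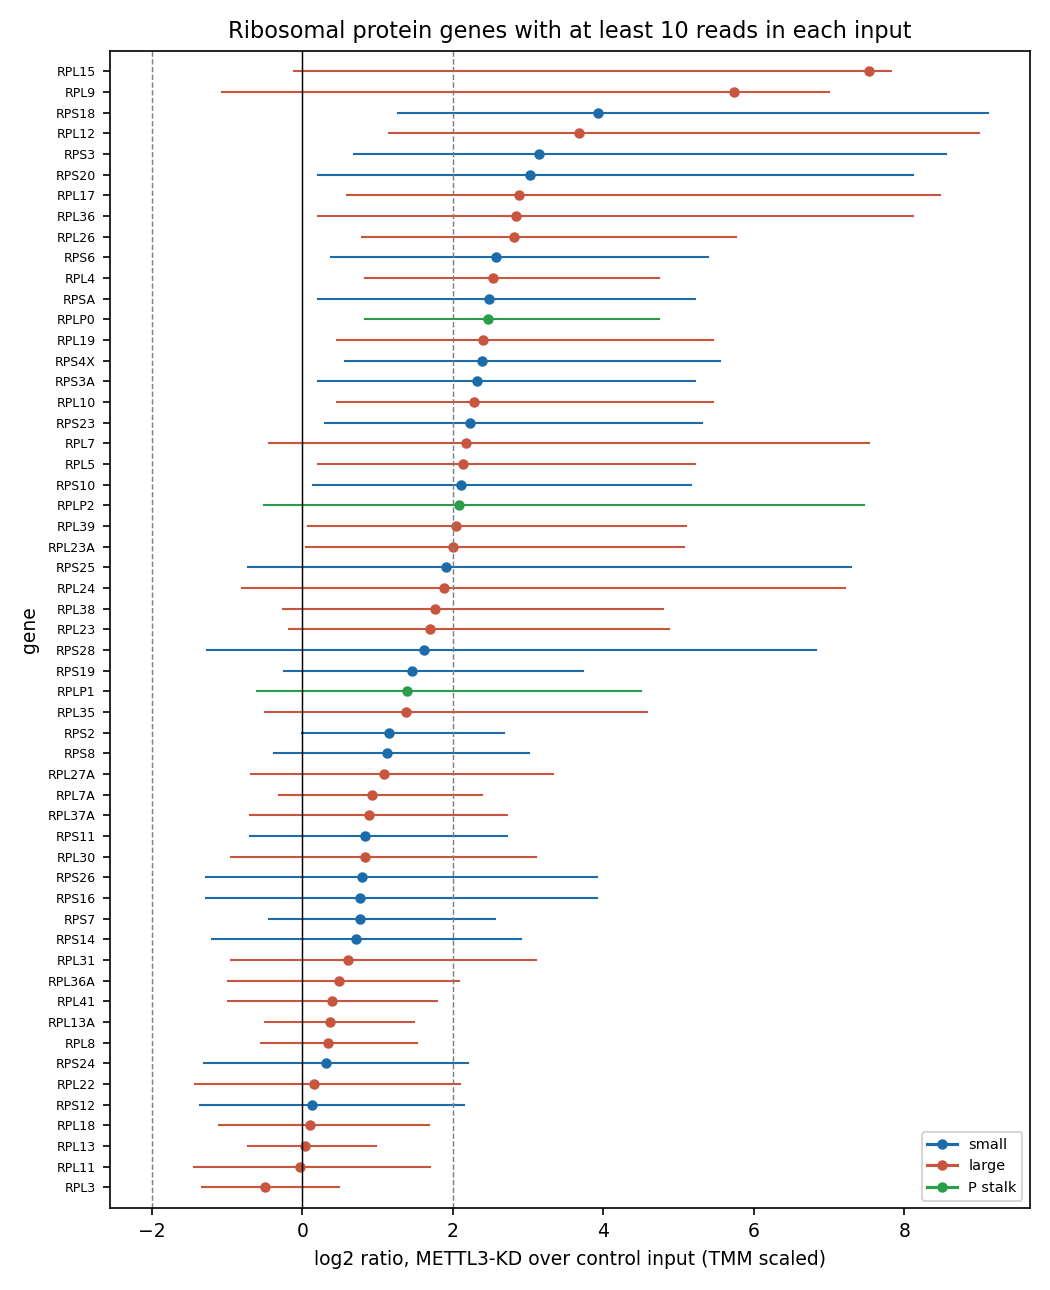
The log2 ratio of METTL3-KD over control input (TMM scaled) for 55 of the 56 ribosomal protein genes with at least 10 reads in each input, ordered by ratio and colored by subunit. Lines are 95% exact intervals on read families, counting error only, with genes over 3 reads counted as at least 1 family, and dashed lines mark -2 and 2. With this scaling 53 of 55 points lie right of 0 and 20 intervals lie wholly right of 0, whereas with total counts 0 of the 56 intervals lay right of 0. With poscounts 25 of 79 genes were beyond 2 on the left, and the share of all genes was not counted.

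When sampling error was counted on families, 20 of the 56 genes had a 95% exact interval above 0 and 0 had one under 0, against 5.34% and 2.51% of the 1871 genes. Most of the 1871 genes are shallower, and an interval can pass only with enough families. Among genes at or above the lower quartile of the ribosomal protein genes' mean level, 19 of 42 ribosomal protein genes had an interval above 0, against 34.5% of 278. The mean level includes the METTL3-KD reads, so that cut also uses the values of the ratio. All of these interval calls rest on TMM. With total count scaling 0 of the 56 intervals lay above 0 and 2 under it.

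All single-gene ratios that follow carry TMM scaling, and of 42 genes followed under each scaling 24 turned from positive to negative under poscounts and 9 under total counts. The genes with the highest ratios had few control families, and control reads are the denominator of the ratio. RPS18 (chr6:33239852-33244288, GRCh37), a protein of the head of the small subunit, had 231 and 229 control reads and 734 and 754 METTL3-KD reads. Its ratio was 3.93 (interval 1.27 to 9.11). RPL12, at the base of the P stalk, had 506 control and 1371 METTL3-KD reads and a ratio of 3.68 (1.15 to 8.998). RPS3, a DNA repair factor as well as a ribosomal protein, had 535 and 999 reads and a ratio of 3.14 (0.68 to 8.56). RPL15 had 11 and 1 control reads against 594 in METTL3-KD and a ratio of 7.53, and RPL9 had 19 and 7 against 329 and a ratio of 5.74. Both lay far below 1 control family, and their intervals included 0. Among pseudogenes of these genes, RPL15P3 had 294 and 236 control reads and RPS18P5 had 220 and 233. Those of RPL9 held 3116 in all, of RPL12 8 and of RPS3 0. Whether reads were exchanged between gene and pseudogene was not tested.

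The 5 genes with the lowest ratios were abundant in the control, the denominator of the ratio. RPL3, at the peptidyl transferase center, had 3599 and 3710 control reads and 535 and 556 METTL3-KD reads, with a ratio of -0.50 (-1.34 to 0.48). RPL11 had 2568 and 530 reads and a ratio of -0.03 (-1.44 to 1.69). RPL13 had 7920 and 1707 reads and a ratio of 0.03 (-0.72 to 0.97). RPL18 (3157 and 716 reads) was at 0.11 and RPS12 (2120 and 486) at 0.12. All 5 intervals included 0.

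The 3 P stalk genes, whose products recruit elongation factors to the ribosome, were read in every lane. RPLP0 (chr12:120634502-120639038, GRCh37) had 720 and 768 control reads and 845 and 897 METTL3-KD reads, with a ratio of 2.47 (0.84 to 4.74). RPLP1 had 494 and 513 against 262 and 293, with a ratio of 1.39 (-0.60 to 4.495). RPLP2 had 273 and 245 against 219 and 246, with a ratio of 2.09 (-0.51 to 7.47). Only the interval of RPLP0 excluded 0, and the 3 intervals overlapped.

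In the small subunit 20 of 32 tested genes were higher beyond 2 (TMM), with a median ratio of 2.36, and in the large subunit 26 of 44 were, with a median of 2.23. Both shares lie under the 79.2% of all genes tested. RPS6 had 840 control and 1056 METTL3-KD reads and a ratio of 2.57 (0.38 to 5.39). RPSA, which also serves as a laminin receptor, had 797 and 942 reads and a ratio of 2.48 (0.21 to 5.22). RPS4X, the X-linked form of RPS4, had 1084 and 1201 reads and a ratio of 2.39 (0.56 to 5.56). RPS19 had 1486 and 857 reads and a ratio of 1.45 (-0.24 to 3.73). RPS14, the gene tied to anemia in the 5q deletion syndrome, had 1321 and 456 reads and a ratio of 0.71 (-1.20 to 2.90). The first 3 of these had intervals above 0, whereas those of RPS19 and RPS14 included it.

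The 3 genes of the p53-MDM2 axis had different ratios with wide intervals. RPL5, which enters the ribosome with RPL11 and 5S rRNA, had 1029 control and 955 METTL3-KD reads and a ratio of 2.14 (0.21 to 5.22), against -0.03 for RPL11. RPL23 had 1073 and 731 reads and a ratio of 1.69 (-0.18 to 4.87). The intervals of RPL5 and RPL11 overlapped.

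In the paralog pairs named here the ubiquitous copy had more reads. RPL10 had 1084 control and 1114 METTL3-KD reads and a ratio of 2.28 (0.46 to 5.46), and RPL39 had 1010 and 879 reads and a ratio of 2.04 (0.08 to 5.11), while RPL10L and RPL39L had 0. RPL36A had 2351 and 693 reads, with a ratio of 0.49 (-0.98 to 2.08), and RPL36AL had 0 and 121. RPS27L had 0 control and 18 METTL3-KD reads, less than 1 family, against 718 METTL3-KD reads of RPS27.

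Ratios were set side by side by 5′TOP start. The 42 genes with one had a median of 2.098, with 23 higher beyond 2 and 10 at 3 control reads or fewer. The 22 tested genes with a RefSeq start and no such tract had a median of 3.81, with 16 higher and 9 at 3 control reads or fewer (TMM). Among those with at least 10 reads in each input the medians were 1.61 in 32 genes and 2.28 in 13, and the difference was not tested. Within 5 bases of the annotated start, 51 of the 65 genes held such a tract, so part of the second set has one nearby. Of the 29 genes that host a snoRNA in the same strand, 17 were higher with a median of 2.09, and 31 of the other 50 were, with a median of 2.44. The share of higher genes in each of these 5′TOP and snoRNA sets lies under the 79.2% of all 9931 genes tested. The 60 snoRNA genes themselves held 634 control and 746 METTL3-KD reads.

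Pseudogenes named after these genes held a large number of reads, and whether any came from the parent genes was not tested. The annotation held 1580 pseudogenes named after 77 of the genes. They had 41675 control reads, 45.11% of the number in the genes themselves, and 22635 METTL3-KD reads, 38.56%. RPL22 and its pseudogene RPL22P1 had identical control counts of 962 and 994 in the 2 lanes, but 195 and 262 against 76 and 93 in METTL3-KD. RPS23 had 497 and 528 control reads and RPS23P8 497 and 527. RPL9 had 26 control reads and its pseudogenes 3116. How reads with several alignments were assigned is not given in the sources used here, and the counts of such pairs are uncertain. None of the 23 genes with at most 3 control reads had more than 3 reads in its pseudogenes in the control. Exons of 44 genes also overlap a gene that is no pseudogene, 32 of them on the same strand and 25 on the opposite strand. Among the ribosomal protein genes without these 44, 22 were higher beyond 2 (TMM), while 79.2% of all genes tested were.

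Mitochondrial ribosomal protein genes, which build a separate ribosome inside mitochondria, were much less abundant. They held 0.4318% of control and 0.1992% of METTL3-KD reads, and 48 of the 61 tested genes had at most 3 control reads. Of the 61, 49 were higher and 7 lower (TMM), with a median of 5.72, against 79.2% higher and 7.2% lower of all genes tested. In the 11 genes with at least 10 reads in each input, 1 was higher and 5 lower, with a median of -1.89. Of all 1871 such genes 8.02% were higher and 20.4% lower, with a median of -0.56. The 17 other genes listed with 5′TOP mRNAs, VIM, HNRNPA1 and NPM1 among them beside translation genes, lay nearer to the cytosolic ribosomal protein genes. Of the 17, 7 were higher and 0 lower, against the same 79.2% and 7.2%. The 12 with at least 10 reads in each input had a median of 0.90, with 2 higher and 0 lower. Depth differed too: median METTL3-KD reads were 52 in the mitochondrial, 661 in the 5′TOP and 693 in the cytosolic set, over genes read there. Whether depth accounts for the difference between the sets was not tested. EEF1A1, the elongation factor that delivers aminoacyl-tRNA, had 22275 control and 12040 METTL3-KD reads and a ratio of 1.36 (0.90 to 1.82), the narrowest interval given here. FAU, whose product is a ribosomal protein fused to a ubiquitin-like part and which lies outside the rule, had 1014 and 225 reads with a ratio of 0.08.

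The METTL3-KD list held fewer m6A peaks in exons of ribosomal protein genes, and fewer peaks in all. At q under 0.01, 17 control peaks had their summit in an exon of 14 genes, 9 of the small subunit, 4 of the large subunit and RPLP2 of the P stalk. The METTL3-KD list held 2 such peaks, in RPL3 and RPS19BP1, too few to judge the overlap of the lists. The study also required a fold above 2 for a significant peak, and with that limit 7 control peaks and 1 METTL3-KD peak were left. The lists held 2298 and 830 peaks in all. The m6A libraries had 7920 and 4508 distinct positions in the control and METTL3-KD. The inputs that peaks were called against had 9291 and 52141, a larger gap in the other direction. The part of these gaps in the peak counts was not tested. Without RPS19BP1, an exon peak was present in 14 of 82 ribosomal protein genes in the control (17.07%) and in 1 in METTL3-KD (1.22%). The shares were 6.317% and 1.842% of all 19488 protein-coding genes, and 22.12% and 3.686% of those with at least 100 METTL3-KD reads.

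Of the 17 control peaks, 11 lay in coding sequence, 1 in a 3′UTR (RPL37) and 5 in exons that the canonical transcript lacks. Most were thin. In 10 of the 17 (58.82%) the pileup, the number of fragments at the summit after removal of duplicates, was 1, against 52.05% of all control peaks. The strongest control peak lay in the coding sequence of RPS9 (chr19:54705339-54705458, GRCh37), a small subunit protein, with a pileup of 5, a fold of 5.998 over background and a −log10 q of 17.39. RPS3A, RPLP2, RPL14, RPS20 and RPL36 had a pileup of 3, and RPL32 had 2. The RPL36 summit also lay in an exon of HSD11B1L, and the RPS10 summit in an exon of RPS10-NUDT3.

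More than 1 in 2 of the genes with a control peak had almost no control input reads. Of the 14 genes with a control exon peak, 8 had at most 3 control input reads, as had 82.62% of the 1231 protein-coding genes with such a peak. RPS9 had 0 control and 147 METTL3-KD input reads, RPL14 had 1 and 430, and RPS27A had 0 and 507 with 2 peaks. The RPL3 peak of METTL3-KD (chr22:39709274-39709373, GRCh37) had a pileup of 5, a fold of 5.66 and a −log10 q of 5.15, in a gene with 7309 control and 1091 METTL3-KD input reads.

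**Figure D4:**
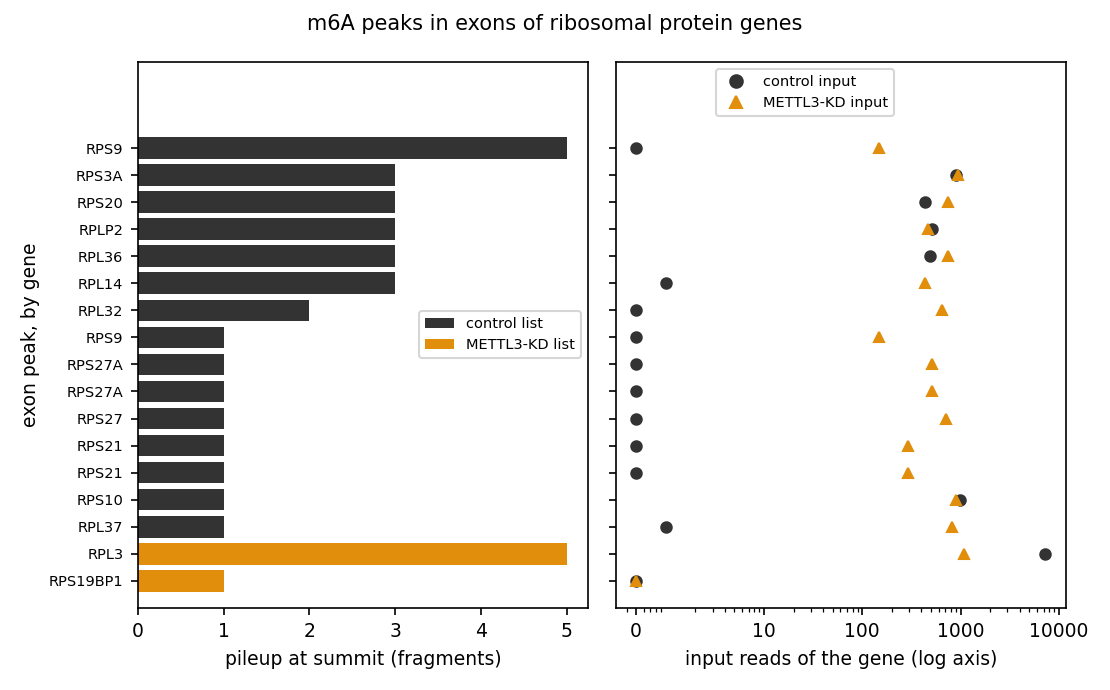
Exon peaks of ribosomal protein genes at q under 0.01, with 15 of the 17 control peaks and both METTL3-KD peaks drawn. The left panel gives the pileup at the summit in fragments for each peak of the control list (black) and the METTL3-KD list (orange), and the right panel the input reads of the same gene on a log axis with 0 drawn at the left. Of the 15 control peaks drawn 8 have a pileup of 1, and 7 of their 12 genes have at most 3 control input reads.

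The m6A consensus DRACH (D is A, G or T, R is A or G, H is A, C or T) was searched on the sense strand within 50 bases of each summit. It was found at 15 of the 17 control peaks and at both METTL3-KD peaks, against 84.42% of 1354 exon peaks in the control and 84.18% of 354 in METTL3-KD. The mean number was 2.118 in the control peaks of these genes and 1.779 in all control exon peaks. Sequence without peaks was not searched, so how often so short a motif occurs there is not known here. The matches therefore cannot show that a peak holds m6A. No match lay near the summits of RPL14 and RPS27. The sequences below show the match nearest to the summit in capitals, 5′ to 3′ on the strand of the gene in GRCh37. The control peaks are the RPS9 peak of highest pileup and those of RPLP2, RPS3A and RPL32, and the RPL3 peak is that of METTL3-KD. In RPLP2 the A of the motif lay at the summit itself, and in RPS3A it lay 35 bases downstream.
RPS9 (chr19:54705359-54705387, plus strand): gtatgggctccgGAACAaacgtgaggtct
RPLP2 (chr11:812797-812825, plus strand): agagtcagatgaTGACAtgggatttggcc
RPS3A (chr4:152025672-152025700, plus strand): ccactggggacgAGACAggtgctaaagtt
RPL32 (chr3:12880916-12880944, minus strand): gaagcaacaaaaAAACAaagcacatgctg
RPL3 (chr22:39709258-39709286, minus strand): tctggagaagatTGACCttaagttcattg

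RPS29 was the only ribosomal protein gene with a peak in both lists, and the summits lay in an intron. The control peak (chr14:50053345-50053516, GRCh37) had a pileup of 89 and a fold of 2.63, and the METTL3-KD peak (chr14:50053335-50053574) a pileup of 62 and a fold of 8.93. RefSeq places RN7SL1, the RNA of the signal recognition particle, inside RPS29 (GRCh38.p14), and whether the fragments came from it was not tested. RPS29 itself had 0 control and 323 METTL3-KD input reads.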

How the data were processed

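Per the labels and the study's methods, the authors filtered out ribosomal RNA reads (Bowtie2), aligned the rest to hg19 (HISAT2) and used featureCounts for gene counts. The deposited input counts are raw, 1 column per lane. The annotation release, strand use and treatment of multiply aligned reads or duplicates are not given in the sources used here. The libraries came from a stranded kit without oligo-dT selection.

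The authors called peaks with MACS2 2.1.1, m6A over input with lanes pooled, fragments extended to 100 bases and 1 read kept per position. The deposited pileup column is a signal, the fold column a ratio to local background, and q values are deposited as −log10. File headers give a q cut-off of 0.05 and the methods 0.01, so q under 0.01 was used. The study's own definition of a significant peak added a fold above 2, which was an alternative here.

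Lanes carry L001 and L002 in the titles and were summed, so each condition is 1 library. Of the 63568 Ensembl IDs, 87.57% matched a symbol in GENCODE 44 on GRCh37. Ratios were log2 ratios of CPM with TMM scaling (edgeR 4.0.16, R 4.3.3) over genes with at least 10 reads summed and a prior count of 2. Shares carry Wilson intervals, and ratios carry 95% exact binomial intervals on reads divided by the lower step of reads per gene, rounded, which is an estimate of distinct molecules. Intervals and floors cover counting error only. The steps are modes of the kernel density of log10 reads (bandwidth 0.03). The ratio script was tested on simulated data.

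Named were the 5 lowest and 5 highest ratios among genes with at least 10 reads in each input, the 8 genes with 0 control reads and most METTL3-KD reads, the 5 highest levels per input, genes fixed for their role, and genes with an exon peak. Others were chosen after their values were seen. The genes and lists were chosen with earlier results of these data known, and the comparison by level, the bounds and intervals under total counts, the 5′TOP sets read in both inputs and the counts without RPS19BP1 were added after the data were seen. Alternatives were other scalings (DESeq2 1.42.0), prior counts, read filters, lanes as replicates, single lanes, gene sets, lengths and peak limits. No count column was left out. Some named genes are not reported here and were left out of the plots that label genes.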

Additional observations from a re-analysis of the deposited data

How the results depend on the processing

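With 1 library per condition and about 2 families per gene in the control, depth limits every ratio. RPL11, at -0.03, turned positive under 7 settings (0.13 to 0.48), and RPL3, at -0.50, with lanes as replicates in DESeq2 (0.01). The number of ribosomal protein genes higher beyond a log2 ratio of 2 (48, with 0 lower and a median of 2.30) became 25 higher, 25 lower and a median of -1.09 under DESeq2 poscounts size factors, and the cause was not tested. With total count scaling it was 27, with a median of 0.88, with at least 10 reads in each input 30, and without genes whose exons overlap another gene 22. Shares of all genes were counted in the main fit only, so counts from other fits have no background here. The read filter also refitted the scaling, so its 30 differ from the 25 of the same 56 genes in the fit over all genes, and the last set holds fewer genes by construction. Under poscounts 24 of 42 single-gene ratios turned from positive to negative, 13 of them from beyond 2: RPL10 (-1.12), RPL36 (-0.57), RPL39 (-1.36), RPL5 (-1.27), RPLP0 (-0.93), RPLP2 (-1.31), RPS10 (-1.29), RPS20 (-0.37), RPS3 (-0.26), RPS3A (-1.08), RPS4X (-1.01), RPS6 (-0.83) and RPSA (-0.92). Under total counts 9 turned negative. Without the genes encoded in mitochondria, the share of control reads moved from 2.85% to 3.13%, and that of METTL3-KD reads from 3.20% to 3.44%. Without the 20 genes with most reads the shares were 3.82% and 5.33%, and with pseudogenes added 4.14% and 4.44%. The median level moved from 102.8 to 314.7 in the control and from 101.3 to 444.5 in METTL3-KD with the length of the canonical transcript. Control exon peaks went from 17 to 7 at q under 0.001 and to 7 at a fold above 2. METTL3-KD exon peaks went from 2 to 1 under each of those limits and to 4 when summits in introns were counted. Leaving out each lane in turn gave 46 to 50 genes higher and medians of 2.27 to 2.50.

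With lanes entered as replicates in edgeR, 50 genes were higher and 0 lower, with a median of 2.47, and a replicate block of lane number gave the same 50, 0 and 2.47. The pairing rests on the L001 and L002 of the titles, and the block changed no count. Of the 94 values recomputed for the main results, 74 kept their direction and stayed within the limits set for a change. Some settings, such as the prior counts, could move little, and the number lower stayed at 0 in most. The tally is therefore no measure of how firm the results are.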
